A study of Mus musculus with 18 samples.

Results

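The genes described here carry the beta-adrenergic signal from the cell surface to cyclic AMP (cAMP) and back down again. They are 9 of the 35560 genes that the count tables of both sequencing providers share, chosen by name: the receptors Adrb1 and Adrb3, the G protein alpha subunits Gnas and Gnai2, the adenylyl cyclases Adcy5 and Adcy6, and the phosphodiesterases Pde3a, Pde4b and Pde4d. All 9 were found in both tables, and 8 had enough counts to be tested. Adrb3 did not.

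In the heart, noradrenaline and adrenaline bind beta receptors, which activate the stimulatory G protein Gs, and Gs in turn activates adenylyl cyclase. The cAMP that this enzyme makes activates protein kinase A, which phosphorylates calcium-handling and contractile proteins and so raises the force and rate of the beat. Inhibitory G proteins of the Gi family oppose the cyclase, and phosphodiesterases break cAMP down.

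The hearts came from male wild-type C57BL/6 mice, and every mouse was given isoproterenol (ISO), an agonist of these receptors, under the skin in PBS at 2.5 mg/kg/day for 21 days. In the 1 µm PS and 100 nm PS groups the mice were also gavaged each day with polystyrene particles of that size at 50 mg/kg/day, and the ISO group was gavaged with water. Each group had 6 libraries, 18 in all, and no group was free of isoproterenol, so the effect of the agonist itself on its own pathway cannot be read from these data. The labels give no age, and they do not say whether every library came from its own mouse, so p-values measure the spread between libraries.

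Batch 1, from 1 provider, held 4 libraries of 1 µm PS, 5 of 100 nm PS and 3 of ISO. Batch 2, from the other, held 2, 1 and 3. Total counts per library ran from 14032257 to 22600570. Levels below are CPM, each library's counts scaled to its total with TMM factors. Fold changes are on the log2 scale from an edgeR quasi-likelihood fit with batch as a term, and an adjusted p (Benjamini-Hochberg over 14623 genes) under 0.05 counts as passed. A set of 8 cardiac myocyte markers summed to 44400 to 110000 CPM in 1 µm PS, 38500 to 83300 CPM in 100 nm PS and 30400 to 93000 CPM in ISO libraries, none of them at 0 in any group. The 6 atrial myocyte markers summed to 241 to 933 CPM in 1 µm PS and 105 to 923 CPM in ISO libraries. In 100 nm PS they summed to 333 to 3590 CPM, highest in replicate 1. The part of tissue sampling in the differences below was not tested. In heart tissue, fewer cells of a type and less RNA per cell cannot be told apart. Libraries also differed in how gene level tracked GC content. The Spearman correlation of a gene's deviation from its batch mean with its GC content was 0.18 to 0.32 in 1 µm PS, 0.12 to 0.37 in 100 nm PS and -0.61 to 0.01 in ISO libraries, so a correction for GC content was also fitted. Where it changed a direction or a call this is stated below, for most calls within a single size only as a count over all genes.

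Of the 8 genes tested, Gnai2 alone passed a test between groups, and only with both particle sizes averaged. In 1 µm PS against ISO 0 of the 8 passed, where 7.39% of all genes tested did (2.89% higher and 4.50% lower). An unadjusted p under 0.05 was found for 1 of the 8, against 27% of all genes. In 100 nm PS against ISO 0 of the 8 passed, where 9.57% of all genes did (3.88% higher and 5.69% lower). There 3 of the 8 had an unadjusted p under 0.05, against 28.6% of all genes. With the mean of both sizes set against ISO 1 of the 8 passed, beside 17.7% of all genes tested (6.80% higher and 10.9% lower). The median log2 fold change of the 8 was 0.12 for 1 µm PS, -0.18 for 100 nm PS and -0.01 for the mean of both, against 0, -0.02 and -0.01 over all genes tested. Fitted changes of the inhibitory subunit, the stimulatory subunit and Adcy6 lay above 0, and those of the 3 phosphodiesterases lay below it, in each comparison with ISO. Those directions turned in some settings, which are named gene by gene below. Other tools made more calls: DESeq2's Wald test passed Gnai2 in 100 nm PS and Gnai2 and Pde4d in the mean of both PS groups, and limma voom with quality weights passed Gnai2 in each size.

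**Figure D1:**
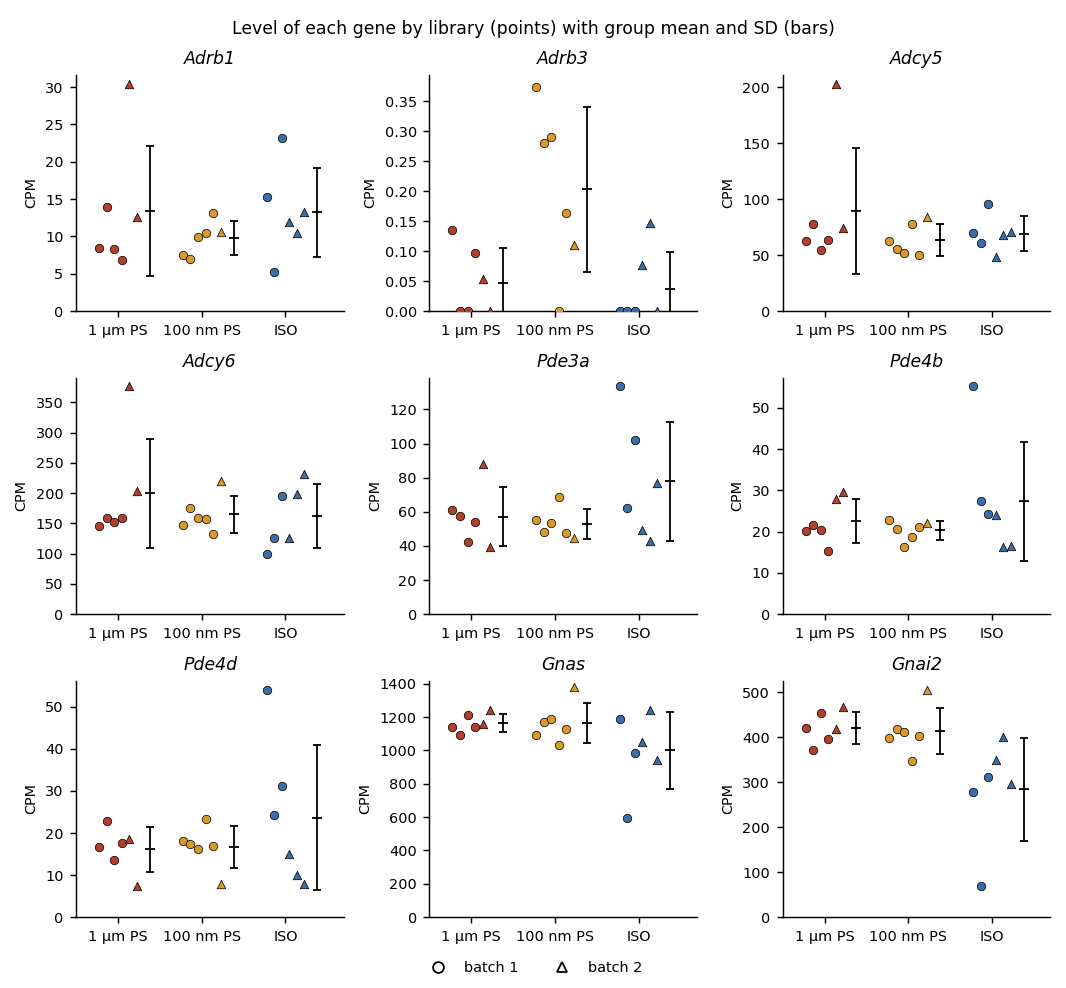
CPM of each gene (vertical axis, starting at 0) in the 6 libraries of 1 µm PS, 100 nm PS and ISO, with circles for batch 1, triangles for batch 2, and bars for the group mean and SD. Replicate 5 of 1 µm PS stands high for Adrb1, Adcy5 and Adcy6 (30.4, 203 and 377 CPM), and ISO replicate 2 stands low for Gnai2 (68.5 CPM).

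Adrb1 encodes the beta1 receptor, the main beta receptor of the cardiac myocyte. It ran from 6.81 to 30.4 CPM in 1 µm PS (median 10.5), from 7.01 to 13.2 CPM in 100 nm PS (median 10.2) and from 5.25 to 23.2 CPM in ISO (median 12.7). The groups overlapped fully, with the highest value in 1 µm PS replicate 5 and the lowest in ISO replicate 2. The log2 fold change was -0.01 (SE 0.34, adjusted p = 0.985) for 1 µm PS and -0.34 (SE 0.35, adjusted p = 0.545) for 100 nm PS against ISO. After the GC correction it was -0.53 (SE 0.34, adjusted p = 0.397) for 1 µm PS and -0.88 (SE 0.35, adjusted p = 0.117) for 100 nm PS. The 2 batches gave opposite signs for 1 µm PS, -0.65 (SE 0.42) in batch 1 and 0.83 (SE 0.34) in batch 2, neither of which passed.

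The promoter window of Adrb1 is shown because Adrb1 heads the pathway and because the window holds a core of the cAMP response element, the DNA motif bound by CREB, a factor that protein kinase A activates. The sequence is RefSeq's, GRCm38.p6, chr19:56721867-56722166, plus strand, from 250 bases before to 50 bases after the start, with the core TGACG in capitals.
Adrb1: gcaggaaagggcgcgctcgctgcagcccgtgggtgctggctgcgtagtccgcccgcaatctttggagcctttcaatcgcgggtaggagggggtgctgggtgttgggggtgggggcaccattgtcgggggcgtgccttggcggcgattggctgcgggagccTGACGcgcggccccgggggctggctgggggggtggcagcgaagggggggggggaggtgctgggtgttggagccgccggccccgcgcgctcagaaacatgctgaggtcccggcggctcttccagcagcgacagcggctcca
RefSeq promoter windows were matched for Adrb1, Adcy5, Gnas, Pde4b and Pde4d, 5 genes with 11 windows. The core, TGACG or its reverse complement CGTCA, stood in 5 of the 11 windows, against 20.8% of all 32851 windows of 300 bases. Of those 5, 1 is of Adrb1, 1 of Pde4b and the rest of Gnas, and a pair of the Gnas windows overlap and share the same match. The full palindrome, TGACG followed at once by TCA, was in 0 of the 11, against 1.79% of all windows. A match of letters is a description and not a site.

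Adrb3 encodes the beta3 receptor, known best from fat. It had 0 to 3 counts per library in 1 µm PS, 0 to 8 in 100 nm PS and 0 to 2 in ISO, summing to 6, 26 and 3 counts. In 100 nm PS, replicate 4 had 0 counts, replicate 6 had 2, and each of the other libraries had 4 to 8, above every library of the other groups. A count of 0 allows up to 0.263 CPM in the shallowest library, counting error only, so most values are near the limit of detection and no fold or test is given. The 9 adipocyte markers, of which 3 were deep enough to test and 0 passed, summed to 35.9 to 148 CPM in 1 µm PS, 19.8 to 233 CPM in 100 nm PS and 11.7 to 177 CPM in ISO, none at 0 throughout a group. Cidea was the highest of the 9, with medians of 78 CPM in 1 µm PS, 76.9 CPM in 100 nm PS and 43.6 CPM in ISO. In 100 nm PS the sum was highest in replicate 1 (233 CPM, with 8 Adrb3 counts) and lowest in replicate 5 (19.8 CPM, with 4). Adipoq, Plin1, Cidec and Cfd reached 8.72, 13, 16.2 and 47.1 CPM in 100 nm PS, but their medians there were 0.232, 0.0277, 0.139 and 0.419 CPM. In the other groups they reached at most 1.27, 0.526, 0.701 and 1.79 CPM. Cidea and Ucp1 instead had their highest values in ISO. The part of adipocyte RNA in the Adrb3 counts was not tested.

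Gnas encodes the alpha subunit of Gs, and it passed in no comparison. It ran from 1090 to 1240 CPM in 1 µm PS (median 1150), from 1030 to 1380 CPM in 100 nm PS (median 1150) and from 595 to 1240 CPM in ISO (median 1020). The groups overlapped, and ISO replicate 2 was the lowest library. The log2 fold change was 0.25 (SE 0.16, adjusted p = 0.33) for 1 µm PS and 0.28 (SE 0.17, adjusted p = 0.278) for 100 nm PS against ISO. After the GC correction it was -0.28 (SE 0.18) and -0.27 (SE 0.18), again short of the threshold. Counts of the Gnas row pool transcripts from several starts of an imprinted locus that also makes antisense RNA, and no source used here states the strand setting of the counting, so these cannot be told apart.

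The Gnas window furthest downstream is shown because it too holds the core, here as CGTCA in capitals. It is RefSeq's, GRCm38.p6, chr2:174329756-174330055, plus strand.
Gnas: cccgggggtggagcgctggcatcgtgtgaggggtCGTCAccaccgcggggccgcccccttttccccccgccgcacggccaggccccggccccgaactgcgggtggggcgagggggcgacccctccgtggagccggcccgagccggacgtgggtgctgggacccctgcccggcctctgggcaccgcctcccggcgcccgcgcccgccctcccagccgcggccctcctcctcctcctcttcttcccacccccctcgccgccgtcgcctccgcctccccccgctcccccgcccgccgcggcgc

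Gnai2 encodes an alpha subunit of Gi, which restrains adenylyl cyclase, and it rose in PS hearts when both sizes were averaged. It ran from 371 to 467 CPM in 1 µm PS (median 418), from 348 to 504 CPM in 100 nm PS (median 408) and from 68.5 to 401 CPM in ISO (median 304). The 2 highest ISO libraries, replicates 4 and 5, reached into the PS range, and the other 4 lay below every PS library. The log2 fold change was 0.67 (SE 0.26, adjusted p = 0.106) for 1 µm PS, 0.70 (SE 0.27, adjusted p = 0.0951) for 100 nm PS, and 0.69 (SE 0.23, adjusted p = 0.0498, a fold of 1.61) for the mean of both.

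The Gnai2 call sat at the threshold. It was lost in 14 of the 18 fits that left out 1 library, with adjusted p up to 0.0818, and held without ISO replicates 2, 3 or 5 or without 1 µm PS replicate 5. ISO replicate 2 set much of its size: without that library the change was 0.42 (SE 0.12, adjusted p = 0.0213) in the mean of both, and 0.42 in each size, where Gnai2 then passed (adjusted p = 0.0449 for 1 µm PS and 0.0472 for 100 nm PS). That library had 13701 entries with a count, against 18399 to 21576 in the other 17, and the part of this in the difference was not tested. The GC correction brought it to 0.25 (SE 0.20, adjusted p = 0.427), and the replicate block gave 0.82 (SE 0.28, adjusted p = 0.1). With ISO replicates 1 and 2, 100 nm PS replicate 6 and 1 µm PS replicate 5 left out together, a setting chosen after seeing the data, it was 0.38 (SE 0.15, adjusted p = 0.149). In batch 1 alone it was 0.87 (SE 0.35, adjusted p = 0.113) and in batch 2 alone 0.43 (SE 0.27, adjusted p = 0.357).

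Endothelial markers moved in the same direction as Gnai2. The 8 markers summed to 1770 to 2570 CPM in 1 µm PS, 1710 to 2640 CPM in 100 nm PS and 758 to 2010 CPM in ISO, lowest in ISO replicate 2. Of the 8, 3 were higher in the mean of both PS groups and 0 lower, and none was at 0 in any group. Over all genes tested 6.80% were higher and 10.9% lower in that comparison. Fibroblast markers, 3 of 8 higher, summed to 1220 to 2520 CPM in 1 µm PS, 1320 to 2840 CPM in 100 nm PS and 831 to 1890 CPM in ISO. Smooth muscle and pericyte markers, 4 of 9 higher, summed to 1440 to 2190 CPM in 1 µm PS, 1470 to 2060 CPM in 100 nm PS and 667 to 2150 CPM in ISO. Higher calls were also found for 2 of 6 Schwann cell and neuron markers and 1 of 7 mesothelium and epicardium markers. Of 8 macrophage markers 0 passed, and 2 of 3 skeletal muscle and 2 of 5 erythrocyte markers were lower. The part of these cell types in the Gnai2 difference was not tested.

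Set against Gnas in the same library, Gnai2 separated the groups. The log2 ratio of Gnai2 to Gnas CPM ran from -1.56 to -1.41 in 1 µm PS (median -1.46), from -1.57 to -1.45 in 100 nm PS (median -1.49) and from -3.12 to -1.58 in ISO (median -1.67). All 12 PS libraries lay above all 6 ISO libraries, the nearest pair being 100 nm PS replicate 4 and ISO replicate 4, at -1.57 and -1.58. Of 14622 genes, 0.226% had a ratio to Gnas above ISO in every PS library and 0.369% below. A ratio within a library does not depend on the scaling factor, and it shows an unequal change of the 2 subunits, not which of them changed. It was not put through the GC correction, and Gnai2 and Gnas have GC contents of 56.7% and 57.8%.

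**Figure D2:**
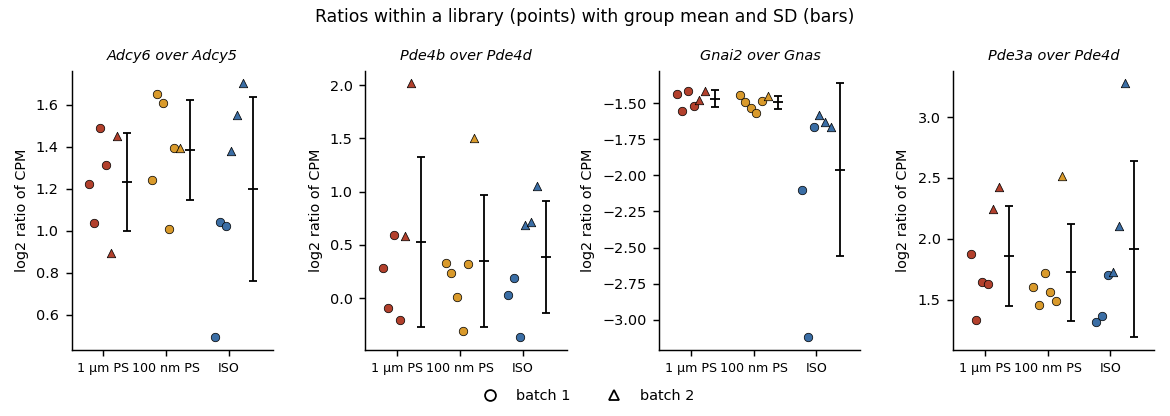
Log2 ratios of CPM between pairs of genes within each library (vertical axis) in 1 µm PS, 100 nm PS and ISO, with circles for batch 1, triangles for batch 2, and bars for mean and SD. Only Gnai2 over Gnas has no overlap between PS and ISO libraries, with the lowest PS value at -1.57 and the highest ISO value at -1.58.

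The cardiac adenylyl cyclases Adcy5 and Adcy6, which make cAMP and are both inhibited by Gi and by calcium, did not pass in any comparison. Adcy5 ran from 54.6 to 203 CPM in 1 µm PS (median 69.1), from 50.1 to 83.8 CPM in 100 nm PS (median 59.1) and from 48.4 to 96.0 CPM in ISO (median 69.1). Adcy6 ran from 146 to 377 CPM in 1 µm PS (median 159), from 132 to 220 CPM in 100 nm PS (median 157) and from 98.9 to 231 CPM in ISO (median 160). The groups overlapped for both genes, and 1 µm PS replicate 5 held the highest value of each.

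The Adcy5 change was 0.35 (SE 0.26, adjusted p = 0.404) for 1 µm PS and -0.02 (SE 0.26, adjusted p = 0.964) for 100 nm PS against ISO. Without 1 µm PS replicate 5 it was -0.04 (SE 0.19) for 1 µm PS, and the batches gave -0.23 (SE 0.22) in batch 1 and 1.12 (SE 0.37) in batch 2. After the GC correction it was -0.25 (SE 0.29) for 1 µm PS and -0.66 (SE 0.29, adjusted p = 0.157) for 100 nm PS. The Adcy6 change was 0.35 (SE 0.20, adjusted p = 0.264) for 1 µm PS and 0.23 (SE 0.20, adjusted p = 0.484) for 100 nm PS, and after the GC correction it was -0.04 (SE 0.19) and -0.19 (SE 0.19). With the 4 libraries named for Gnai2 left out together Adcy6 was at -0.11 (SE 0.18) for 1 µm PS and -0.17 (SE 0.20) for 100 nm PS. Adcy6 passed in the mean of both PS groups once ISO replicate 3 was left out, at 0.49 (SE 0.17, adjusted p = 0.0478). Adcy6 exceeded Adcy5 within every library, by a log2 ratio of CPM of 0.89 to 1.49 in 1 µm PS, 1.01 to 1.65 in 100 nm PS and 0.49 to 1.70 in ISO.

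The phosphodiesterases had lower fitted levels in PS hearts, and none passed. Pde3a, whose product is the cAMP-hydrolysing enzyme that cGMP inhibits and the target of milrinone, ran from 39.5 to 87.9 CPM in 1 µm PS (median 56.0), from 44.4 to 68.8 CPM in 100 nm PS (median 50.7) and from 42.8 to 134 CPM in ISO (median 69.5). The groups overlapped, with the top values in ISO replicates 1 and 3. The change was -0.45 (SE 0.24, adjusted p = 0.246) for 1 µm PS, -0.63 (SE 0.25, adjusted p = 0.108) for 100 nm PS and -0.54 (SE 0.21, adjusted p = 0.078) for the mean of both.

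Pde4b and Pde4d encode cAMP-specific enzymes of the rolipram-sensitive family, which shape cAMP near the receptor and near calcium channels. Pde4b ran from 15.3 to 29.7 CPM in 1 µm PS (median 20.9), from 16.3 to 22.8 CPM in 100 nm PS (median 20.8) and from 16.3 to 55.2 CPM in ISO (median 24.2). Pde4d ran from 7.35 to 22.9 CPM in 1 µm PS (median 17.1), from 7.76 to 23.3 CPM in 100 nm PS (median 17.2) and from 7.91 to 53.9 CPM in ISO (median 19.5). Both groups of PS libraries lay within the ISO range apart from the lowest values, and ISO replicate 1 was the highest library for each gene.

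The Pde4b change was -0.27 (SE 0.25, adjusted p = 0.511) for 1 µm PS and -0.45 (SE 0.25, adjusted p = 0.256) for 100 nm PS. It rested on ISO replicate 1, without which it was 0.06 (SE 0.18) and -0.06 (SE 0.19). In that library 44.44% of counts were mitochondrial, against 12.93% to 31.91% in the other 17, and its total count was the lowest. The part of this in the phosphodiesterase differences was not tested. The Pde4d change was -0.52 (SE 0.28, adjusted p = 0.236) for 1 µm PS, -0.74 (SE 0.28, adjusted p = 0.0982) for 100 nm PS and -0.63 (SE 0.24, adjusted p = 0.0704) for the mean of both. Without ISO replicate 1 the last of these was -0.33 (SE 0.22, adjusted p = 0.298).

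The median log2 fold change of the 8 cardiac myocyte markers was also below 0, at -0.34 in the mean of both, with 3 above 0. At an unadjusted edgeR p under 0.05 stood 3 of the 8, against 34.1% of all genes, and 0 passed. Their summed level had a median of 50200 CPM in 1 µm PS, 47700 CPM in 100 nm PS and 73700 CPM in ISO. The groups hold unequal shares of the 2 batches. In batch 1 the sums were 44400 to 52700 CPM in 1 µm PS and 38500 to 49800 CPM in 100 nm PS. Those of ISO were 30400 to 69500 CPM. In batch 2 they were 110000 and 79900 CPM in 1 µm PS, 83300 CPM in 100 nm PS and 77800 to 93000 CPM in ISO. The part of these myocyte markers in the phosphodiesterase differences, or in the falls of Pln and Bves given below, was not tested.

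The falls of the phosphodiesterases passed in batch 1 alone. There the averaged PS groups against ISO stood at -0.89 (SE 0.21, adjusted p = 0.0214) for Pde3a, -0.87 (SE 0.22, adjusted p = 0.0277) for Pde4b and -1.02 (SE 0.23, adjusted p = 0.0175) for Pde4d. In batch 2 alone, with 3 PS and 3 ISO libraries, the values were -0.09 (SE 0.33), 0.40 (SE 0.24) and -0.13 (SE 0.37), with adjusted p of 0.892, 0.333 and 0.863. The difference between batches was tested for every gene, and 0.0821% of all genes passed. None of the members did, and the smallest adjusted p among them in edgeR's quasi-likelihood test was that of Pde4b, at 0.228. Leaving out 1 µm PS replicate 5, a batch 2 library, gave calls to Pde3a at -0.72 (SE 0.17, adjusted p = 0.0118) and Pde4d at -0.85 (SE 0.19, adjusted p = 0.00784) in the mean of both, and to both genes in each size. Leaving out ISO replicate 2 also gave calls to both, at -0.63 (adjusted p = 0.0415) for Pde3a and -0.71 (adjusted p = 0.0462) for Pde4d, and so did ISO replicate 5 for Pde3a (-0.64, adjusted p = 0.0409) and ISO replicate 6 for Pde4d (-0.74, adjusted p = 0.0439). With the 4 libraries named for Gnai2 left out together Pde3a passed at -0.74 (SE 0.19, adjusted p = 0.0482), Pde4d was at -0.70 (SE 0.21, adjusted p = 0.0692) and Pde4b at 0.10 (SE 0.19). After the GC correction Pde3a was at -0.36 (SE 0.21, adjusted p = 0.248) and Pde4d passed at -0.77 (SE 0.23, adjusted p = 0.0382).

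**Figure D3:**
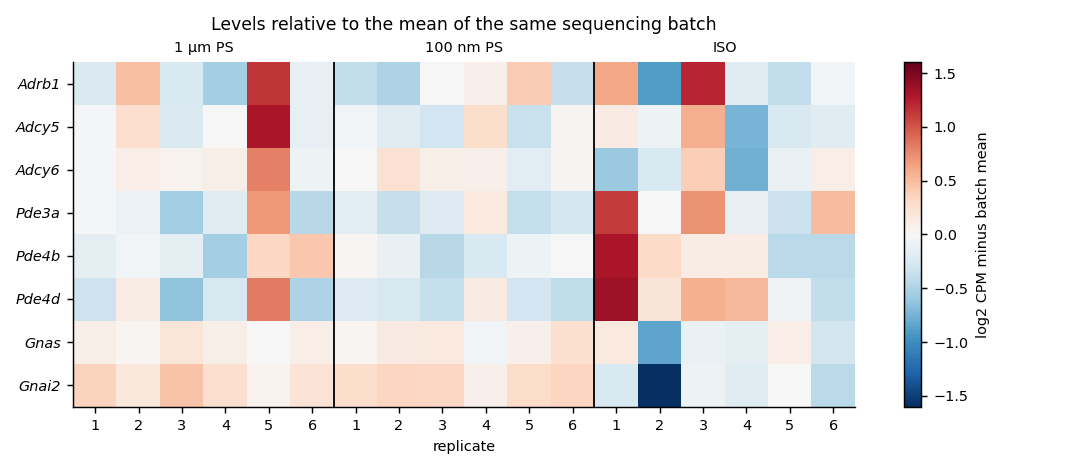
Log2 CPM of each of the 8 tested genes less the mean of the same batch (colour, red above and blue below), for replicates 1 to 6 of 1 µm PS, 100 nm PS and ISO. The darkest columns are 1 µm PS replicate 5 and ISO replicates 1 and 2, while the 100 nm PS columns stay pale.

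Particle size made no difference that passed. In 1 µm PS against 100 nm PS, edgeR passed 0 of the 8 genes and 0 of all 14623 (0% of genes tested), with 49 of all genes and 0 of the 8 at an unadjusted p under 0.05. DESeq2 and limma voom also passed 0. The log2 differences ran from -0.03 for Gnas and Gnai2 to 0.37 for Adcy5. Their 95% intervals were -0.38 to 0.32 for Gnas, -0.57 to 0.51 for Gnai2, -0.43 to 1.08 for Adrb1 and -0.20 to 0.94 for Adcy5, so differences of those sizes between the particles cannot be told from 0 here. The comparisons of each size with ISO share the ISO libraries.

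**Figure D4:**
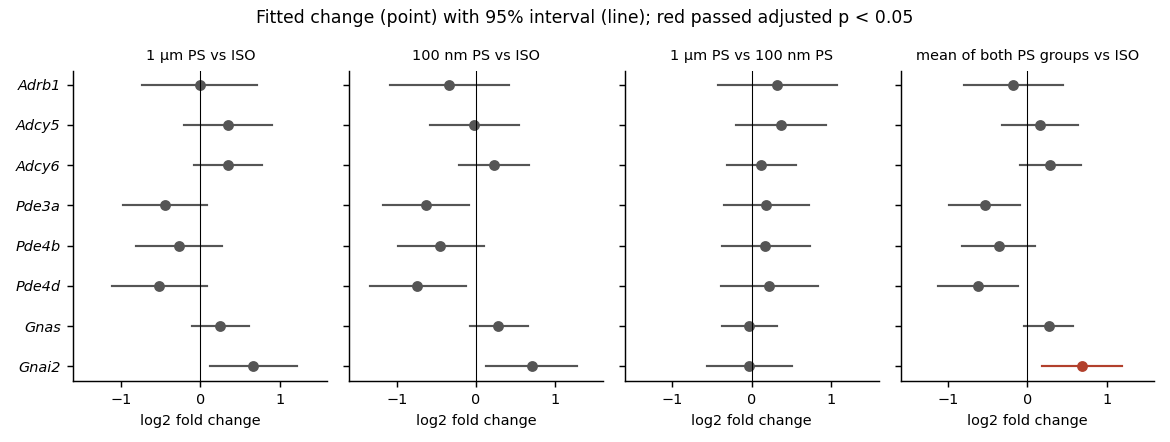
Log2 fold change of each tested gene (horizontal axis, points) with its 95% interval (lines) in the 4 comparisons, the gene that passed in red. Gnai2 in the mean of both PS groups is the single red point, at 0.69, and the 3 phosphodiesterases lie left of 0 in the comparisons with ISO.

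Scaled by exon length, the levels spanned a wide range, with the G protein subunits on top. Each gene's counts were divided by its summed exon length, and these values were rescaled to the same total in every library (TPM). The median TPM over the 18 libraries was 229 for Gnai2, 224 for Gnas, 53.6 for Adcy6, 19.9 for Adcy5 and 9.73 for Pde3a. It was 6.63 for Adrb1, 4.53 for Pde4b, 3.11 for Pde4d and 0.0392 for Adrb3. Gnai2 exceeded Gnas in 11 of 18 libraries only, and in 0 of 18 once the longest transcript replaced the summed exons, so the order of that pair depends on the length used. Gnas exceeded Adcy6, Adcy6 exceeded Adcy5, and Pde4d exceeded Adrb3 in 18 of 18 libraries under either length. Adrb1 exceeded Pde4b in 16 of 18 libraries by summed exons and in 3 of 18 by the longest transcript.

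Among the genes themselves, Pde3a and Pde4d ran opposite to the G protein subunits across libraries, with the differences between groups left in. Over the 18 libraries, which share their batch centring and scaling, Spearman's rho of log2 CPM less the batch mean was 0.69 between Gnas and Gnai2 and 0.72 between Pde3a and Pde4d. It was -0.66 between Gnai2 and each of Pde3a and Pde4d, and between Gnas and those genes it was -0.57 and -0.52. Without ISO replicates 1 and 2 these values were 0.80, 0.65, -0.59, -0.59, -0.76 and -0.66. Pde4b had values of -0.36 with Gnai2 and -0.16 with Gnas, and of -0.18 and -0.20 without those libraries. The members differ in GC content, 43.0% for Pde3a, 45.9% for Pde4b and 49.8% for Pde4d against 55.3% to 59.5% for the others. The part of GC content, or of the differences between groups, in these correlations was not tested.

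Genes with the pattern most like each member, by the same rho over 18 libraries among 10150 genes, are given next. Nearest to Gnai2 were Rgs3 (0.96), a protein that switches off G protein alpha subunits, Hdac7 (0.95) and Fgfr3 (0.95). Nearest to Pde3a were Rab10 (0.96), Antxr2 (0.95) and Esrrg (0.94). Pde4d ran with Cog5 (0.85), Kifap3 (0.85) and Prkar2a (0.83), the last a regulatory subunit of protein kinase A. Adcy6 ran with Rbm20 (0.89), a splicing factor of titin, Cacna1c (0.88), the pore of the L-type calcium channel, and Cux2 (0.87). Adcy5 ran with Aco1 (0.90), Adrb1 with Kpnb1 (0.90), Gnas with Gmeb2 (0.89) and Pde4b with Aar2 (0.84).

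The rest of the pathway was read from 10 lists of 120 genes, of which 113 were tested. In 1 µm PS against ISO 4 rose and 3 fell (6.19% of those tested, against 7.39% of all genes), in 100 nm PS 6 rose and 8 fell (12.4%, against 9.57%), and in the mean of both 11 rose and 12 fell (20.4%, against 17.7% of all genes). The share that passed was thus near that of all genes, which also holds as the background for the counts by list below, 6.80% higher and 10.9% lower. Their median log2 fold change was 0.04 in the mean of both, against -0.01 over all genes. Changes below are for the average of the PS groups against ISO unless a size is named, and 0 of the 113 differed between the sizes.

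Upstream of the kinase, other receptors did not pass, and the remaining cyclases partly rose. Of 12 other receptors tested 0 passed, and the smallest p belonged to the adenosine receptor Adora2b (-1.30, SE 0.45, adjusted p = 0.0517), whose ISO values ran from 0.344 to 11.0 CPM. The highest was ISO replicate 2, and without that library the Adora2b change was -0.29. Of 6 other cyclases 2 rose. Adcy7 had 17.9 to 29.2 CPM in 1 µm PS, 23.0 to 35.9 CPM in 100 nm PS and 10.1 to 19.0 CPM in ISO, with a change of 0.70 (SE 0.17, adjusted p = 0.0111). Its 100 nm PS libraries all lay above the ISO libraries, and how many other genes did so was not counted. Adcy4 rose by 0.59 (SE 0.15, adjusted p = 0.0136). It passed in each size, but after the GC correction it was at 0.24 in 1 µm PS (adjusted p = 0.447) and 0.25 in 100 nm PS (adjusted p = 0.365), and the replicate block gave adjusted p of 0.132 and 0.142. Of 14 other phosphodiesterases 0 passed, and Pde2a, which cGMP stimulates, came nearest at 0.58 (SE 0.23, adjusted p = 0.0783).

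Of 22 other G protein subunits and RGS regulators 2 rose and 5 fell. The gamma subunit Gng5 had 50.2 to 76.1 CPM in 1 µm PS, 51.6 to 72.6 CPM in 100 nm PS and 65.5 to 195 CPM in ISO, and fell by 0.88 on the log2 scale (SE 0.17, adjusted p = 0.00426). Rgs2, which limits Gq and Gs signalling, fell by 0.74 (SE 0.20, adjusted p = 0.0194), and Ric8b, a chaperone of Gs alpha, fell by 0.43 (SE 0.12, adjusted p = 0.0195). Of 7 receptor kinases and arrestins 2 rose: Arrb1, a beta-arrestin that uncouples receptors, at 0.59 (SE 0.18, adjusted p = 0.0332), and the receptor kinase Grk6 at 0.39 (SE 0.13, adjusted p = 0.0412).

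At protein kinase A, the inhibitor and a regulatory subunit fell, and no catalytic subunit passed. Pkia, a peptide inhibitor of the kinase, had 57.4 to 133 CPM in 1 µm PS (median 86.1), 58.6 to 127 CPM in 100 nm PS (median 78.7) and 91.9 to 340 CPM in ISO (median 147). It fell by 1.11 in 1 µm PS (SE 0.25, adjusted p = 0.0193), by 1.31 in 100 nm PS (SE 0.26, adjusted p = 0.0112) and by 1.21 in the mean of both (SE 0.21, adjusted p = 0.00225). The ranges overlapped at the low end of ISO, and Pkia passed with each library left out in turn. With the replicate block 0 of all genes, and so not Pkia, passed in either size. Prkar2a fell by 0.60 (SE 0.18, adjusted p = 0.0258). Of 9 genes in that list these were the 2 that passed. Among 10 anchoring proteins, which tether the kinase, Akap12 rose (0.48, SE 0.13, adjusted p = 0.017) and Akap7 fell (-0.47, SE 0.15, adjusted p = 0.0428).

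Among 7 other cAMP effectors, the exchange factors Rapgef3 and Rapgef4, known as Epac1 and Epac2, went opposite ways. Rapgef3 rose by 0.61 (SE 0.16, adjusted p = 0.0144), whereas Rapgef4 fell by 0.51 (SE 0.14, adjusted p = 0.0201). In batch 1 Rapgef4 had 17.4 to 20.2 CPM in 1 µm PS, 12.9 to 18.6 CPM in 100 nm PS and 27 to 32.1 CPM in ISO. In batch 2 the ranges overlapped, at 13.8 to 19.1 CPM, 15.3 CPM and 14.3 to 20.8 CPM in the same order. Rapgef3 passed in each size, but after the GC correction it was at 0.15 in 1 µm PS (adjusted p = 0.651) and 0.13 in 100 nm PS (adjusted p = 0.645), and the replicate block gave adjusted p of 0.142 and 0.188. Bves, a cAMP-binding membrane protein of the myocyte, fell by 0.47 (SE 0.14, adjusted p = 0.0252). Of 16 CREB factors, coactivators and target genes 2 rose and 1 fell. Crtc2, a coactivator of CREB, had 21.3 to 29.1 CPM in 1 µm PS, 19.3 to 30.7 CPM in 100 nm PS and 10.9 to 22.8 CPM in ISO, and rose by 0.66 (SE 0.12, adjusted p = 0.003). Crtc1 rose by 0.58 (SE 0.18, adjusted p = 0.0329), and Ppargc1a, a driver of mitochondrial genes, fell by 0.62 (SE 0.20, adjusted p = 0.0408). Of 10 kinase substrates of the myocyte, the calcium pump inhibitor Pln fell by 0.81 (SE 0.18, adjusted p = 0.00693), and Lipe, the hormone-sensitive lipase, rose by 0.51 (SE 0.17, adjusted p = 0.0485).

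How firm these calls were differed between genes. Like Rapgef4, Bves and Ric8b overlapped between PS and ISO in batch 2. There Bves had 39.1 to 63.6 CPM in 1 µm PS, 44.7 CPM in 100 nm PS and 46.8 to 50.6 CPM in ISO. Ric8b had 29.5 to 30.5 CPM, 28 CPM and 26.9 to 34.8 CPM. Their difference between batches did not pass (edgeR quasi-likelihood adjusted p = 0.507 for Rapgef4, 0.403 for Bves and 0.602 for Ric8b). Other pathway calls are not given by batch here. Leaving out ISO replicate 3 ended the call of Ric8b (adjusted p = 0.0513), and leaving out ISO replicate 1 ended those of Prkar2a (adjusted p = 0.0867) and Bves (adjusted p = 0.0582). The calls of Arrb1 and Crtc1 each ended in 6 of 18 such fits, both without ISO replicates 2, 4 or 6, 100 nm PS replicate 6 or 1 µm PS replicate 5, Arrb1 also without 100 nm PS replicate 1 and Crtc1 also without 100 nm PS replicate 2. Those of Grk6 ended in 12, of Ppargc1a in 13, of Akap7 in 14 and of Lipe in 15. Calls within a single size were less firm. After the GC correction 2 of all 14623 genes passed in 1 µm PS and 1 in 100 nm PS, so most of the single-size calls below ended. With the replicate block 0 passed in either size. In 1 µm PS alone, leaving out 1 library ended the call of Pln in 13 of 18 fits, of Adcy4 and Rapgef3 in 12, of Akap12 in 10, of Gng5 in 7 and of Pkia and Crtc2 in 0. In 100 nm PS alone it ended the call of Ric8b in 13 of 18 fits, of Rgs2, Arrb1 and Prkar2a in 12, of Bves in 11, of Rapgef3 and Rapgef4 in 10, of Adcy4 in 8 and of Pkia in 0. The 100 nm PS calls of Crtc2 (adjusted p = 0.0518), Adcy7 (adjusted p = 0.0553), Gng5 (adjusted p = 0.0548) and Pln (adjusted p = 0.0631) ended in 1 fit each, without 100 nm PS replicate 6. After the GC correction Pkia (-0.84, adjusted p = 0.0169), Prkar2a (-0.69, adjusted p = 0.0197) and Ric8b (-0.42, adjusted p = 0.0433) still passed. Adora2b then passed (-1.61, adjusted p = 0.0411), but with ISO replicate 2 included, without which its uncorrected change was -0.29. The other named pathway genes did not pass after the correction, among them Crtc2 (0.31, adjusted p = 0.0525), Gng5 (-0.83, adjusted p = 0.0525), Pln (-0.49, adjusted p = 0.11), Adcy4 (0.25, adjusted p = 0.291) and Rapgef3 (0.14, adjusted p = 0.555). With the 4 libraries left out together Pkia (-1.37, adjusted p = 0.0252), Bves (-0.59, adjusted p = 0.034) and Ppargc1a (-0.99, adjusted p = 0.0252) passed, and the other named pathway genes did not, Pln at an adjusted p of 0.0511 and Crtc2 at 0.0679 among them.

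**Figure D5:**
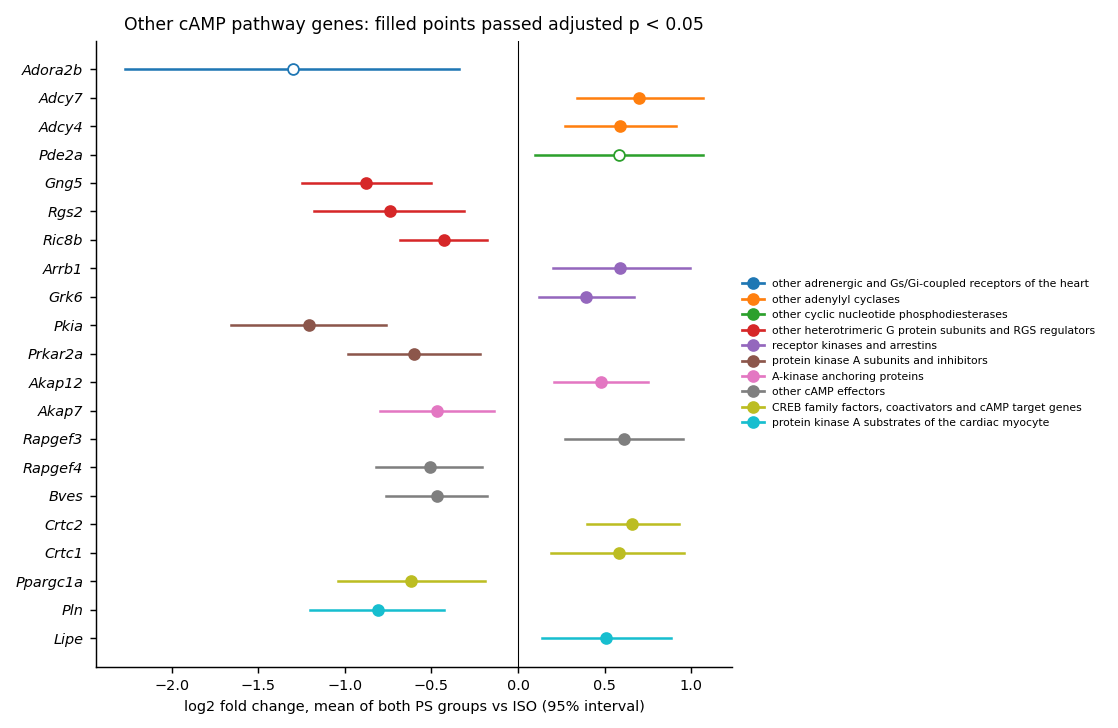
Log2 fold change of the named pathway genes for the averaged PS groups against ISO (horizontal axis) with 95% intervals, coloured by list, filled where the gene passed. Pkia lies furthest left among the filled points, at -1.21, and Adcy7 furthest right, at 0.70.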

How the data were processed

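For 18 libraries, poly(A) RNA of mouse hearts was sequenced by 2 providers, per the labels' protocols. The deposited batch 1 table holds raw counts per gene, and the deposited batch 2 table holds estimated counts (19.6% of nonzero values not whole), rounded here. Per the submitters' processing notes, the build was GRCm39 (mm39) and the tools included featureCounts 1.5.0-p3 and the aligner HISAT2 2.0.5, with fastp, DESeq2 and StringTie 1.3.3b also listed. The tables were joined on 35560 genes, 22146 by paired gene numbers and 13414 by symbol, which hold 85.16% to 99.54% of a library's counts. Entries with no gene name hold 0.10% to 0.39% and were left out.

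In R 4.3.3, edgeR 4.0.16 (TMM, minimum count 10, robust quasi-likelihood fit with group and batch) tested 14623 genes. The SE is the log2 fold change divided by the root of its F statistic, with intervals at 14 residual degrees of freedom. log2 CPM uses a prior count of 2. On simulated 1 µm PS against ISO data (14457 genes) the fit recovered 48% of genes changed by 1 on the log2 scale and 89% of those changed by 2. The simulated libraries had no GC trend, unlike the real ones, so these rates need not hold for the data. DESeq2 1.42.0 and limma 3.58.1 served as alternatives. GC content and length came from GENCODE M21 transcripts. The GC correction fitted, per library, a spline of GC content with 5 degrees of freedom to deviations from the batch mean and entered it as an offset.

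The members and lists were chosen with earlier results of these data known. Of each list, at most 3 genes that passed in any comparison were named, by smallest p, or otherwise the 1 with the smallest p. No pair of libraries looked duplicated.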

Additional observations from a re-analysis of the deposited data

Results flagged for a closer look

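Within groups of 6 libraries, 18 of the 102 sets of values examined held 1 library whose gap to its nearest neighbour, as a share of the range, exceeded Dixon's 95% critical value. Chance alone picks out about 1 in 20 such groups.

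Replicate 5 of 1 µm PS, from batch 2, was high for Adrb1 (30.4 CPM, the others 6.81 to 13.9), Adcy5 (203 CPM, the others 54.6 to 77.5), Adcy6 (377 CPM, the others 146 to 203) and Bves (63.6 CPM, the others 29.7 to 39.1). Other 1 µm PS libraries stood apart for 1 value each: replicate 4 for Adora2b (0.483 CPM, the others 1.08 to 1.28), replicate 2 for Ric8b (34.8 CPM, the others 28.7 to 30.9), and replicate 6 for Grk6 (38.8 CPM, the others 26.5 to 30.0) and for the log2 ratio of Pde4b to Pde4d (2.02, the others -0.20 to 0.59).

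In 100 nm PS, replicate 6, the single batch 2 library of its group, was high for Arrb1 (79.8 CPM, the others 41.9 to 55.5) and for the log2 ratios of Pde4b to Pde4d (1.5, the others -0.31 to 0.33) and Pde3a to Pde4d (2.52, the others 1.46 to 1.72). Replicate 4 was high for Pkia (127 CPM, the others 58.6 to 83.9).

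In ISO, replicate 2 was low for Gnai2 (68.5 CPM, the others 277 to 401), Pde2a (26.8 CPM, the others 101 to 145) and the log2 ratio of Gnai2 to Gnas (-3.12, the others -2.10 to -1.58), and high for Gng5 (195 CPM, the others 65.5 to 113) and Adora2b (11.0 CPM, the others 0.344 to 2.54). Replicate 1 was high for Pde4b (55.2 CPM, the others 16.3 to 27.5).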

How the results depend on the processing

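Among the 8 genes tested, the calls named in the report held under few settings. For the mean of both PS groups, the count of members that passed was 1 in the model described and became 2 with DESeq2 or upper-quartile factors, 3 in batch 1 alone, and 0 with no filter on low counts, no batch term, batch 2 alone, without ISO replicates 1 and 2 together, or with the GC correction and ISO replicate 2 left out (a setting chosen after seeing the data). With ISO replicates 1 and 2, 100 nm PS replicate 6 and 1 µm PS replicate 5 left out together, also chosen after seeing the data, it was 1, but that gene was Pde3a and not Gnai2. For 1 µm PS it was 0, and 1 with limma voom. For 100 nm PS it was 0, 1 with DESeq2 or limma voom, and 2 in batch 1 alone. Leaving out 1 library gave 0 to 2 in each size and 0 to 3 in the mean of both.

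Counts over all genes moved more. For 1 µm PS, against 1081, they were 2322 with DESeq2, 598 in batch 1 alone, 11 in batch 2 alone, 481 with no filter, 2 with the GC correction, 3 with that and without ISO replicate 2, and 0 with no batch term or with only the groups compared. For 100 nm PS, against 1399, they were 2607, 7 in batch 2 alone, 717, 1, 0, 0 and 364 under the like settings, and 606 without ISO replicates 1 and 2. For the mean of both, against 2590, they were 272 in batch 2 alone, 709 with no batch term, 131 with the GC correction and without ISO replicate 2, and 1543 without ISO replicates 1 and 2. Between sizes, batch 2 alone passed 1 gene. Leaving out 1 library gave 265 (1 µm PS replicate 1) to 2334 (ISO replicate 3) for 1 µm PS, 170 (100 nm PS replicate 6) to 2283 (ISO replicate 3) for 100 nm PS, and 1925 to 3458 for the mean of both. For 1 µm PS the count moved by over 1.5 times without any of 12 libraries (ISO 1, 2, 3, 4 and 6, 100 nm PS 3 and 6, and 1 µm PS 1, 2, 3, 4 and 6), and for 100 nm PS without any of 9 (ISO 3 and 4, all 6 of 100 nm PS, and 1 µm PS 2).

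The replicate numbers do not pair the libraries: over 18 same-numbered pairs the correlation of deviations ran from -0.44 to 0.23, 3 were over 0.1, and 0 of 18 libraries matched their own number best. With the replicate block 0 members passed in each comparison, and over all genes 0 passed for each size and 467 for the mean of both, while Adcy5 in 100 nm PS was at 0.00.

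Signs turned as follows. With the GC correction, which moves the median of all genes to -0.10, -0.16 and -0.13 in 1 µm PS, 100 nm PS and their mean, Adcy5 was at -0.25 in 1 µm PS and -0.45 in the mean, Adcy6 at -0.04, -0.19 and -0.12, Gnas at -0.28, -0.27 and -0.27, and Grk6 at -0.11 in the mean. Relative to that shift Adcy6 and Grk6 lie close to 0. With ISO replicate 2 left out as well, Adcy5 was at -0.15 and -0.35, Adcy6 at -0.11 in 100 nm PS and -0.04 in the mean, Gnas at -0.33, -0.34 and -0.33, Gng5 at 0.00 in 1 µm PS, Pde2a at -0.01 in the mean, and between sizes Gnas at 0.00 and Gnai2 at 0.01. In batch 1 alone Adcy5 was at -0.23 in 1 µm PS and -0.29 in the mean, and between sizes Adrb1 was at -0.04, Pde3a -0.02, Pde4b -0.04, Pde4d -0.06, Gnas 0.03 and Gnai2 0.05. In batch 2 alone 1 µm PS gave Adrb1 at 0.83, Pde3a 0.15, Pde4b 0.58 and Pde4d 0.23, 100 nm PS gave Adcy5 at 0.43 and Pde4b 0.22, and the mean gave Adrb1 at 0.34, Pde4b 0.40 and Adora2b 0.27. With the 4 libraries left out together Adcy5 was at -0.18 in 1 µm PS and -0.28 in the mean, Adcy6 at -0.11, -0.17 and -0.14, Pde4b at 0.14, 0.07 and 0.10, Adora2b at 0.10 in the mean, and between sizes Pde4d at -0.03, Gnas at 0.03 and Gnai2 at 0.05; the counts over all genes were 200, 0 and 395. With limma voom Pde4b was at 0.25, 0.19 and 0.22, Adcy5 at 0.20 in 100 nm PS, Adora2b at 0.02 in the mean and Pde4d at -0.00 between sizes. With no batch term Adrb1 was at 0.02 in 1 µm PS, and between sizes Pde4d was at -0.05 and Gnai2 at 0.02. With no filter Adrb1 was at 0.01 in 1 µm PS. Without ISO replicates 1 and 2 Pde4b was at 0.20, 0.10 and 0.15, Adcy5 at 0.03 in 100 nm PS and Adora2b at 0.09 in the mean.

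Leaving out 1 library turned Adrb1 (-0.41 to 0.32 in 1 µm PS, -0.53 to 0.07 in 100 nm PS, -0.42 to 0.20 in the mean), Adcy5 (-0.04 to 0.53, -0.12 to 0.20 and -0.07 to 0.36) and Pde4b (-0.39 to 0.06 in 1 µm PS and -0.47 to 0.00 in the mean). Between sizes it turned Adcy6 (-0.02 to 0.17), Pde3a (-0.05 to 0.29), Pde4d (-0.06 to 0.35), Gnas (-0.06 to 0.00) and Gnai2 (-0.09 to 0.02). The cause was not tested for any of these, except that fits with fewer libraries or genes hold less data. Adrb3, at 0 to 8 counts, is limited by depth.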
